A study of Rattus norvegicus with 18 samples.

Results

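The genes described here encode voltage-gated sodium channels and the epithelial sodium channel (names beginning with Scn), voltage-gated calcium channels (Cacn) and nicotinic acetylcholine receptors (Chrn). They were taken by name alone, as every gene name on the array with one of these beginnings other than Scn10a, and each was represented by its brightest probe. Of 56 such names, 42 passed the filter on dim signals, which asks for all 3 arrays of some group to be well above background. They were tested among 20821 gene names in all. Of these, 30 were above background on all 18 arrays and 12 on fewer. The 14 names that were not tested were Scn1a, Scn8a, Scn2b, Scnn1g, Cacna1f, Cacna2d4, Cacng6, Chrna2, Chrna6, Chrna9, Chrna10, Chrnb3, Chrnd and Chrng, of which 6 were above background on no array and 8 on 1 to 8 arrays. Scnm1, which the naming rule takes in, encodes a zinc-finger protein of RNA splicing and is no channel subunit. Its levels lay between -2.23 and -1.72, and it was called in no comparison.

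RNA was measured in whole adrenal glands of untreated rats of 3 strains, at 3 and at 6 weeks of age. WKY is the normotensive strain, SHR the spontaneously hypertensive rat bred from the same stock, and SHRSP the stroke-prone line derived from SHR. This gave 6 groups with 3 arrays each, called biological replicates in the labels. The strains differ at many loci, so strain and blood pressure cannot be told apart in this design, and neither the sex of the rats nor any pooling of glands is stated in the labels.

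Voltage-gated sodium channels consist of a pore-forming alpha subunit and small beta subunits, and carry the rising phase of the action potential. Voltage-gated calcium channels join a pore-forming alpha1 subunit with an alpha2delta, a beta and in some cells a gamma subunit. The chromaffin cells of the adrenal medulla release adrenaline and noradrenaline when acetylcholine from the splanchnic nerve opens nicotinic receptors, the membrane depolarises and calcium enters. In the adrenal cortex, T-type and L-type calcium channels take part in the control of aldosterone production.

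A probe reads 60 bases of a transcript, so a value describes that stretch. For the genes that the results turn on, 30 bases of the probe are printed, from its 5′ end, or from its 3′ end where the probe closes on a stop codon in an open frame. Capitals mark such a stop codon. Cacna1c is shown with both of its probes because they gave differences of the same sign.
Cacna1c, the brightest probe: ctgtcccacgagatatgcaaaagcaatgca
Cacna1c, the second probe: tgacgcctgcgatatgacaatagaggagat
Cacna2d1: caatttatactcctttggctggtatctggc
Cacna1d: cagaccctgggcgagaggaagaggacctgg
Scn4b: tcctctggcttggataacagtacccatagt
Chrna7: gtggaggctgtgtccaaagactttgctTAA
Chrne: tcagcgtcggttctacgctaatcttccttg
Chrnb1: ccagcaatgcgcacaggtcctaccccataa
Cacnb2: gagccaaaggaagattattcacatgaacat

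In the rn4 assembly, which the array's own annotation uses, the printed bases of the Cacna1c probes lie at chr4:154896004-154896033 and chr4:154897449-154897478 on the minus strand, with whole probes 1445 bases apart. The bases of Cacna2d1 lie at chr4:15140300-15140329, of Cacna1d at chr16:5384309-5384338, of Chrna7 at chr1:117587580-117587609, of Chrne at chr10:57497338-57497367 and of Chrnb1 at chr10:56604997-56605026, all on the minus strand. On the plus strand, those of Scn4b lie at chr8:48106487-48106516 and of Cacnb2 at chr17:89076857-89076886. Which exon or UTR each probe reads was not analysed here. In the RefSeq gene table (GRCr8), which lists all 42 members, 7 overlap another protein-coding gene: Cacna1c with Dcp1b, Cacna2d3 with Lrtm1, Cacnb1 with Rpl19, Cacnb3 with Tuba1c, Chrna4 with Col20a1, Chrnb1 with Zbtb4, and Chrne with C10h17orf107 and Gp1ba.

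Levels below are log2 signals relative to the array's own 75th percentile, which is 0, and differences are on the same log2 scale with their standard errors (SE) from limma and n = 3 arrays in each group. A gene was called where the Benjamini-Hochberg adjusted p over all genes tested was under 0.05. Every adjusted p comes from the limma fit over all 18 arrays unless another setting is named. Where a left-out array, another setting or a second probe is named, it comes from a separate limma fit. The arrays had 77.8% to 84.8% of their spots well above background and 0 saturated. The labelled tissue was borne out by its markers: all 8 markers of the cortex, such as Star and Cyp11b1, and 9 of 10 markers of chromaffin cells, such as Th and Dbh, were above background on all 18 arrays. Of the cortex markers, 2 of 8 were higher than in WKY in SHR and 4 in SHRSP at 3 weeks, 4 in each at 6 weeks, and 0 lower. The chromaffin markers were higher than in WKY in 5 of 10 genes in SHR and 7 of 10 in SHRSP at 3 weeks and in 8 and 7 at 6 weeks, and lower in 0. Their summed linear signal, in multiples of the 75th percentile, was 82.2 to 89.2 in WKY, 107 to 111 in SHR and 130 to 147 in SHRSP at 3 weeks, and 67.7 to 74.5, 118 to 141 and 113 to 140 at 6 weeks. In RNA from a whole gland, more cells of a type and more RNA per cell cannot be told apart, and the part of the cortex and chromaffin markers in the strain differences of the channel genes was not tested.

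Some arrays stood apart. On the array of SHR replicate 3 at 3 weeks, 10 of 12 markers of nerve fibres and Schwann cells had their highest level of the 18 arrays, led by the neurofilament gene Nefl, 3.86 above the mean of the other 2 arrays of its group. The summed signal of the 12 markers was 7.36 there, against 1.45 to 2.93 in the other 5 groups. On the array of SHR replicate 2 at 3 weeks, liver transcripts were high, with Alb at 5.47 and Ttr at 5.04, where the other SHR arrays of that age had Alb at -3.09 and 0.50. Of 7 tested markers of brown and white fat, 4 fell in SHR and 2 in SHRSP between 3 and 6 weeks, and 2 were lower in SHR than in WKY at 6 weeks. Their summed signal in SHR was 69.4 to 143 at 3 weeks and 35.6 to 52.7 at 6 weeks, while Lep lay between -7.91 and -6.38 on all 18 arrays. The arrays lay on 5 slides, and the residuals of arrays of different groups correlated at 0.23 on average on the same slide (24 pairs) and at -0.05 on different slides. A call that was not made with the slide as a block is named as such beside it.

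Against WKY, 11 of the 42 members were called in at least 1 of the 4 comparisons (26.2%), where 48.3% of all genes were, and Cacna1c was among those called in all 4. In SHR at 3 weeks, 5 members were called (11.9%), 3 higher and 2 lower, where 18.2% of all genes were called, 9.02% higher and 9.2% lower. In SHRSP at 3 weeks, 7 were called (16.7%), 4 higher and 3 lower, against a background of 26.2%, with 14.8% higher and 11.5% lower. At 6 weeks, 8 were called in SHR (19%), 3 higher and 5 lower, where 29.2% of all genes were called, 16.2% higher and 13% lower. In SHRSP at 6 weeks, 7 were called, 3 higher and 4 lower, against 23.9% of all genes, 11.1% higher and 12.8% lower. SHRSP differed from SHR in 1 member at 3 weeks, Cacnb1, where 7.94% of all genes were called, and in 1 member at 6 weeks, Scn4b, where 15% were. In the fit over all 18 arrays, the share of members called was below that of all genes in each of the 6 strain comparisons. Without SHR replicate 1 at 3 weeks it was above it in SHR against WKY (21.4% against 17.9%) and in SHRSP against SHR (9.52% against 5.79%) at that age. Without SHR replicate 3 at 3 weeks it was above it in SHRSP against WKY at 6 weeks (26.2% against 24%), and with the 6 arrays of the 2 groups alone in both comparisons with WKY at 6 weeks (14.3% against 12.6% in SHR and 16.7% against 11.4% in SHRSP).

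With age, 21 members were called in at least 1 strain (50%), where 47.1% of all genes were. Among those called in all 3 strains, Cacnb2 and Chrnb1 rose, and Cacna1d, Chrna4 and Chrne fell. In WKY, 8 members were called (19%), 2 higher and 6 lower at 6 weeks, where 12.3% of all genes were called, 5.16% higher and 7.16% lower. In SHR, 18 were called (42.9%), 5 higher and 13 lower, against 29.3% of all genes, 15.1% higher and 14.1% lower. In SHRSP, 11 were called (26.2%), 2 higher and 9 lower, against 29% of all genes, 10.5% higher and 18.5% lower. The median difference over the 42 members was 0.07 in SHR and -0.16 in SHRSP, beside 0.08 and -0.09 over all genes. Without SHR replicate 3 at 3 weeks, 11 members were called in SHR, 3 higher and 8 lower, where 22.6% of all genes were. Over the 9 pairwise comparisons, 66 pairs of a member and a comparison were called (17.5%), against 21.2% of the pairs over all genes. The arrays of the 2 groups overlapped in 0 of the 66, and 97.5% of the called pairs of all genes were also without overlap. With the slide as a block 57 of the 66 were called as well (86.4%), beside 89.7% over all genes. The other 20 members were called in no pairwise comparison of the fit over all 18 arrays.

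**Figure D1:**
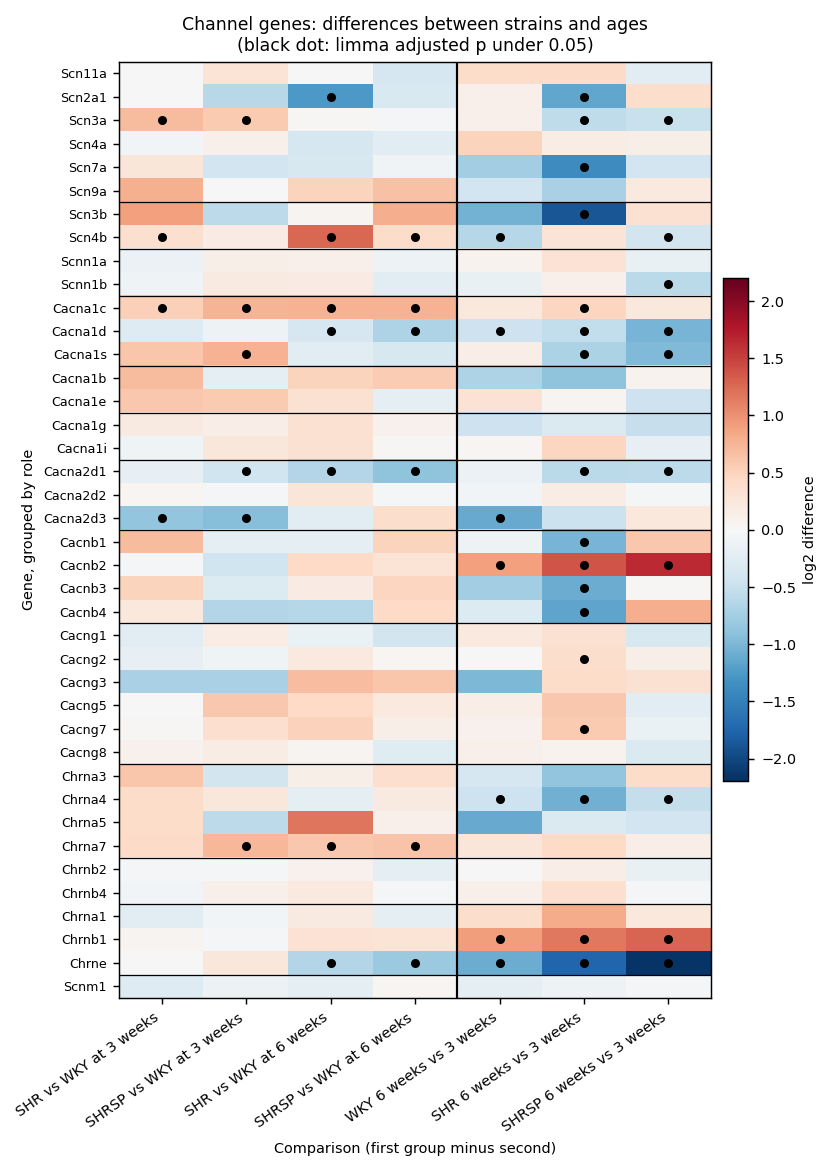
Log2 differences of the tested members reported here (rows, grouped by role) in the 4 comparisons with WKY and the 3 comparisons between ages (columns); colour gives the log2 difference, first group minus second, and a black dot marks a limma adjusted p under 0.05. Dots are densest in the SHR column for age, and Cacna1c has a dot in each of the 4 comparisons with WKY.

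Among the sodium channel alpha subunits, 7 of 9 names were tested. Scn3a, a neuronal sodium channel that is strongest in early life, was higher in both hypertensive strains at 3 weeks. Its levels were -4.74, -4.66 and -4.44 in WKY, -4.04, -4.03 and -3.66 in SHR and -4.07, -4.00 and -4.06 in SHRSP at 3 weeks, with no overlap between WKY and the others. The differences were 0.70 ± 0.14 (adjusted p = 0.00341) and 0.57 ± 0.14 (adjusted p = 0.00869). At 6 weeks the levels were -4.43, -4.34 and -4.72 in WKY, -4.79, -4.28 and -4.32 in SHR and -4.53, -4.52 and -4.52 in SHRSP, and the groups overlapped. Scn3a fell with age in SHR (-0.55 ± 0.14, adjusted p = 0.0107) and SHRSP (-0.48 ± 0.14, adjusted p = 0.0211), and its difference in WKY was 0.12. The call in SHR was lost without SHR replicate 3 at 3 weeks (-0.43, adjusted p = 0.0537), and that in SHRSP without SHRSP replicate 2 at 3 weeks or replicates 1 or 2 at 6 weeks (-0.48 to -0.46, adjusted p from 0.0516 to 0.0657).

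Scn7a, which encodes a sodium-sensing channel protein, had levels of -2.51, -2.05 and -0.99 in SHR at 3 weeks and -3.41, -3.26 and -3.04 at 6 weeks. It fell by 1.39 with age in SHR (SE 0.28, adjusted p = 0.00211), and its second probe fell by 1.28 (adjusted p = 0.00428). Without SHR replicate 3 at 3 weeks the difference was -0.95 (adjusted p = 0.00236). In WKY its levels were -2.39 to -1.89 at 3 weeks and -2.96 to -2.80 at 6 weeks, a difference of -0.77 that was not called. Without SHR replicate 3 at 3 weeks, the age difference in WKY was called. Scn2a1, a brain sodium channel, was above background on 9 arrays and on 0 of the SHR arrays at 6 weeks, so its lower level there has only a bound. It was at least 1.33-fold lower than in WKY at 6 weeks (adjusted p = 0.0188) and at least 1.22-fold lower than in SHR at 3 weeks (adjusted p = 0.0321). Here a bound sets the mean of the brighter group against the dimmest signal that counts as above background. The first of these calls was lost without SHR replicate 2 or 3 at 6 weeks (adjusted p of 0.066 and 0.0616). The second was lost without those arrays or without SHR replicate 3 at 3 weeks (adjusted p = 0.11). It was also not made with the slide as a block (adjusted p = 0.123). Neither was called with normexp background correction (-0.21 and -0.11, adjusted p of 0.157 and 0.423), so the bounds hold only without that correction. The second bound rests on SHR replicate 3 at 3 weeks, which read -6.04, where the other 2 arrays averaged -7.74. Scn9a, the sodium channel of peripheral neurons, read -4.97 to -4.11 on 17 arrays and -2.67 on SHR replicate 3 at 3 weeks, and was not called. Scn4a (-7.77 to -5.07), known from skeletal muscle, and Scn11a (-7.71 to -6.35), known from sensory neurons, were not called either.

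Of the sodium channel beta subunits, which tune gating and surface expression, 3 of 4 were tested. Scn4b, whose product is tied to the resurgent sodium current, separated the 3 strains at 6 weeks. Its levels were -4.48, -4.42 and -4.46 in WKY, -3.87, -4.17 and -4.25 in SHR and -4.39, -4.38 and -4.07 in SHRSP at 3 weeks. By 6 weeks the levels were -5.07, -5.09 and -5.11 in WKY, -3.94, -3.91 and -3.61 in SHR and -4.67, -4.73 and -4.67 in SHRSP. The 3 strains did not overlap at 6 weeks, with SHR highest and WKY lowest. SHR exceeded WKY by 1.27 ± 0.11, or 2.41-fold (adjusted p = 2.6e-06), SHRSP exceeded WKY by 0.40 ± 0.11 (adjusted p = 0.0172), and SHRSP lay below SHR (-0.87 ± 0.11, adjusted p = 0.000159). At 3 weeks SHR was higher by 0.36 ± 0.11 (adjusted p = 0.0401). That last call was not made with the slide as a block (adjusted p = 0.0533), and was lost with 6 of the 18 arrays left out in turn (0.24 to 0.39, adjusted p from 0.0502 to 0.158). With age Scn4b fell in WKY (-0.63 ± 0.11, adjusted p = 0.00237) and in SHRSP (-0.41 ± 0.11, adjusted p = 0.0147), while SHR differed by 0.28 (adjusted p = 0.0759). The age call in SHRSP was lost without SHRSP replicate 3 at 3 weeks (-0.30, adjusted p = 0.0757). It was not made with quantile normalization (-0.26, adjusted p = 0.161) or median scaling (-0.31, adjusted p = 0.0795). The 6-week difference of SHRSP from WKY was lost without SHRSP replicate 1 at 6 weeks (0.39, adjusted p = 0.0536). With normexp background correction that difference was not called (0.16, adjusted p = 0.181).

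Scn3b had levels of -2.59, -2.31 and 0.27 in SHR at 3 weeks and -3.72, -3.23 and -3.34 at 6 weeks, and fell by 1.89 (SE 0.57, adjusted p = 0.0238). Without SHR replicate 3 at 3 weeks, the array with the high nerve markers, the difference was -0.98 (adjusted p = 0.0678). It was also lost without SHR replicate 1 or 3 at 6 weeks (-1.74 and -1.93, adjusted p of 0.0572 and 0.052). Of the epithelial sodium channel, through which aldosterone-responsive tissues take up sodium, the beta subunit Scnn1b had levels of -6.23, -5.80 and -5.79 in SHRSP at 3 weeks and -6.67, -6.52 and -6.45 at 6 weeks. It fell by 0.60 (SE 0.17, adjusted p = 0.0184), a call lost without SHRSP replicate 2 or 3 at 3 weeks or replicate 1 at 6 weeks (-0.54 to -0.53, adjusted p from 0.0637 to 0.0738). The alpha subunit Scnn1a, between -5.04 and -4.14, was not called.

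**Figure D2:**
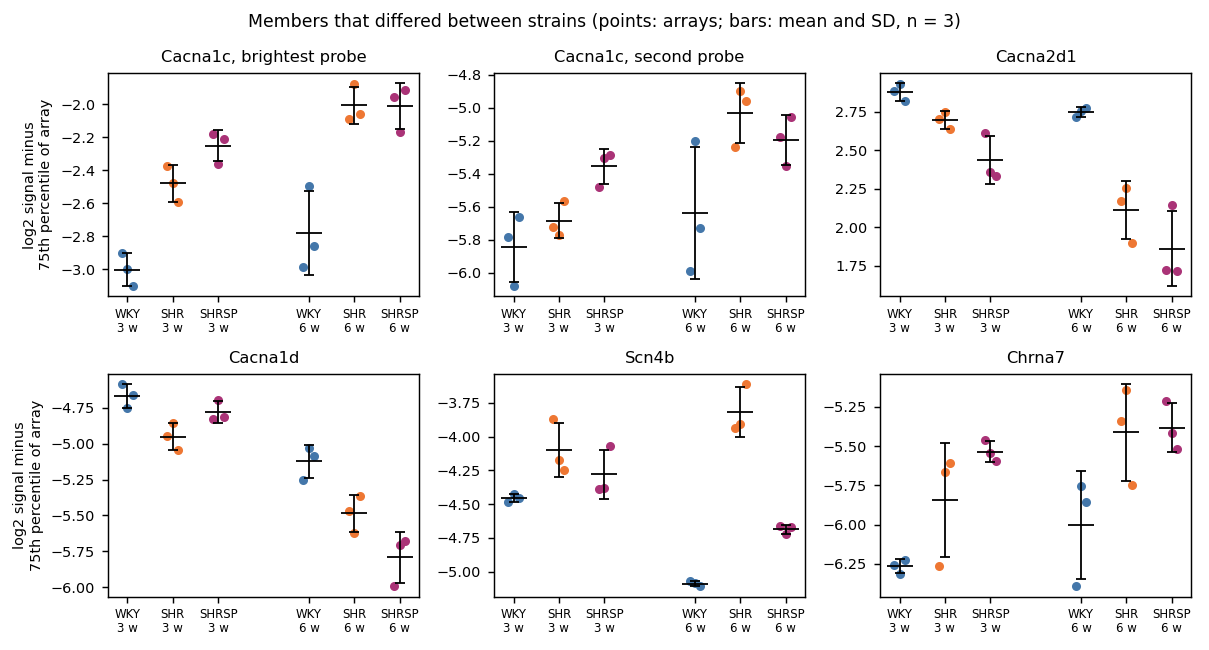
Levels on each array (points; y axis, log2 signal minus the 75th percentile of the array) for members that differed from WKY, with the mean and SD of 3 arrays (bars), by strain at 3 and 6 weeks (x axis). Cacna1c is higher in SHR and SHRSP, and Scn4b separates the 3 strains at 6 weeks.

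Calcium channel alpha1 subunits form the pore and give the current its name. Cacna1c, the L-type channel of heart and smooth muscle that is also found in chromaffin cells, was higher in both hypertensive strains at both ages. Its levels were -2.90, -3.0 and -3.10 in WKY, -2.37, -2.48 and -2.59 in SHR and -2.18, -2.36 and -2.21 in SHRSP at 3 weeks. At 6 weeks they were -2.99, -2.49 and -2.86 in WKY, -2.09, -1.88 and -2.06 in SHR and -1.95, -2.17 and -1.91 in SHRSP. All 6 WKY arrays lay below the hypertensive arrays of the same age. SHR was higher by 0.52 ± 0.12 (adjusted p = 0.00743) and SHRSP by 0.75 ± 0.12 (adjusted p = 0.000401) at 3 weeks, and by 0.77 ± 0.12 each at 6 weeks (adjusted p of 0.000308 and 0.000329). Within slides that held both groups, the difference was 0.51 to 0.53 in SHR and 0.72 to 0.89 in SHRSP at 3 weeks. At 6 weeks only slide 5 held both, and WKY replicate 2 (-2.49) was its only WKY array. The differences there were 0.53 in SHR and 0.58 in SHRSP.

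The second Cacna1c probe gave differences of the same sign, 0.16 ± 0.17 (adjusted p = 0.611) and 0.49 ± 0.17 (adjusted p = 0.0497) at 3 weeks, and 0.60 ± 0.17 (adjusted p = 0.0163) and 0.44 ± 0.17 (adjusted p = 0.0786) at 6 weeks, so that 2 of the 4 passed the test. With the mean over both probes the difference in SHR at 3 weeks was 0.34 (adjusted p = 0.0995). Cacna1c rose with age in SHR (0.47 ± 0.12, adjusted p = 0.00968), a call that was not made with the slide as a block (0.31, adjusted p = 0.0621). The second probe rose by 0.65 there (adjusted p = 0.0113).

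Cacna1d encodes the other L-type channel of chromaffin and glomerulosa cells, which opens at less depolarised voltages. Its levels at 3 weeks were -4.58, -4.75 and -4.66 in WKY, -4.95, -4.85 and -5.05 in SHR and -4.83, -4.69 and -4.81 in SHRSP. The 6-week levels were -5.25, -5.03 and -5.08 in WKY, -5.47, -5.62 and -5.37 in SHR and -6.0, -5.71 and -5.68 in SHRSP. At 6 weeks the 3 strains did not overlap, and SHRSP was lowest. The difference from WKY was -0.36 ± 0.10 in SHR (adjusted p = 0.0144) and -0.67 ± 0.10 in SHRSP (adjusted p = 0.000224), and at 3 weeks -0.28 (adjusted p = 0.0662) and -0.12 (adjusted p = 0.466). The 6-week call in SHR was lost without SHR replicate 2 or WKY replicate 2 (-0.30 and -0.32, adjusted p of 0.063 and 0.0504). It was not made with normexp background correction (-0.13, adjusted p = 0.149) or with the 6 arrays of the 2 groups alone (adjusted p = 0.103). Cacna1d fell with age by 0.46 in WKY (adjusted p = 0.00927), by 0.54 in SHR (adjusted p = 0.0014) and by 1.01 in SHRSP (adjusted p = 6.4e-06). So in the hypertensive strains at 6 weeks Cacna1c was higher and Cacna1d lower than in WKY.

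Cacna1s, the L-type channel of skeletal muscle, was higher in SHRSP at 3 weeks, with levels of -5.80, -5.36 and -5.40 against -6.15, -6.48 and -6.24 in WKY, and -5.98, -5.58 and -5.49 in SHR. The difference was 0.77 ± 0.20 in SHRSP (adjusted p = 0.0107), and 0.60 ± 0.20 in SHR missed the threshold (adjusted p = 0.0509). At 6 weeks the levels were -6.25, -5.94 and -6.24 in WKY, -6.78, -6.31 and -6.04 in SHR and -6.66, -6.65 and -6.18 in SHRSP, and the groups overlapped. It fell with age by 0.98 in SHRSP (adjusted p = 0.00227) and by 0.69 in SHR (adjusted p = 0.0195). The 3-week call in SHRSP was lost without WKY replicate 2 (0.68, adjusted p = 0.0512), and the fall in SHR without SHR replicate 2 or 3 at 3 weeks or replicate 1 at 6 weeks (-0.63 to -0.49, adjusted p from 0.0677 to 0.075). Of the remaining alpha1 genes none was called. Cacna1b, the N-type channel of nerve endings and chromaffin cells, read -5.83 to -4.70 on 17 arrays and -2.96 on SHR replicate 3 at 3 weeks. Cacna1e, the R-type channel, read -7.91 to -5.78. The T-type channels Cacna1g and Cacna1i read -7.23 to -5.82 and 0.94 to 2.31. A second probe for Cacna1i that shares 43 bases with the brightest read 1.58 to 2.62 lower on every array, which shows how far a level depends on the probe.

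The alpha2delta subunits raise the number of calcium channels at the cell surface, and Cacna2d1 encodes a subunit that binds gabapentin. Its levels were 2.88, 2.93 and 2.82 in WKY, 2.70, 2.75 and 2.64 in SHR and 2.61, 2.36 and 2.33 in SHRSP at 3 weeks. By 6 weeks the levels were 2.71, 2.75 and 2.77 in WKY, 2.17, 2.26 and 1.90 in SHR and 1.72, 2.14 and 1.72 in SHRSP. WKY was highest at both ages without overlap. The difference from WKY was -0.18 ± 0.12 in SHR (adjusted p = 0.358) and -0.44 ± 0.12 in SHRSP (adjusted p = 0.0132) at 3 weeks, and -0.64 ± 0.12 (adjusted p = 0.00121) and -0.88 ± 0.12 (adjusted p = 9.51e-05) at 6 weeks. The 3-week call was lost without SHRSP replicate 2 or 3 or WKY replicate 2 (-0.42 to -0.39, adjusted p from 0.051 to 0.0615). Cacna2d1 fell with age by 0.59 in SHR (adjusted p = 0.00243) and by 0.57 in SHRSP (adjusted p = 0.00259), and its difference in WKY was -0.13 (adjusted p = 0.546).

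Cacna2d3, another alpha2delta gene, was above background on 12 arrays. At 3 weeks its levels were -6.18, -6.40 and -6.11 in WKY, -6.86, -7.38 and -7.07 in SHR and -6.92, -7.05 and -7.55 in SHRSP, with WKY highest. At 6 weeks they were -6.90, -7.70 and -7.42 in WKY, -7.81, -7.46 and -7.44 in SHR and -6.64, -7.17 and -7.03 in SHRSP, and the groups overlapped. The 3-week differences were -0.87 ± 0.22 in SHR (adjusted p = 0.0122) and -0.94 ± 0.22 in SHRSP (adjusted p = 0.00534), and WKY fell with age by 1.11 (adjusted p = 0.00474). Only 1 of the 3 WKY arrays at 6 weeks was above background, so the size of that fall rests mostly on signals that were not. The difference in SHR was lost without SHR replicate 2 at 3 weeks, the array with liver transcripts (-0.74, adjusted p = 0.062). Cacna2d2 (-6.99 to -6.14) was not called.

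The beta subunits bind inside the cell and carry the pore to the membrane. All 4 were tested, and Cacnb2 was the one that rose with age in every strain. Its levels at 3 weeks were -5.75, -6.28 and -5.97 in WKY, -5.72, -6.14 and -6.24 in SHR and -6.21, -6.45 and -6.65 in SHRSP. The 6-week levels were -4.70, -5.25 and -5.33 in WKY, -4.46, -4.67 and -4.83 in SHR and -4.53, -4.78 and -5.07 in SHRSP, so that every 6-week array lay above every 3-week array. The rise was 0.91 ± 0.21 in WKY (adjusted p = 0.0104), 1.38 ± 0.21 in SHR (adjusted p = 0.000242) and 1.65 ± 0.21 in SHRSP (adjusted p = 4.67e-05). The call in WKY was lost without WKY replicate 2 at 3 weeks (0.77, adjusted p = 0.0524).

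The other beta subunits fell with age in SHR, where the third array at 3 weeks was high. Cacnb3 had levels of -2.22, -2.12 and -0.96 in SHR at 3 weeks and -2.92, -2.89 and -2.76 at 6 weeks, a difference of -1.09 ± 0.25 (adjusted p = 0.00516), or -0.68 (adjusted p = 0.00552) without that array. Cacnb1 had levels of -3.79, -3.87 and -2.66 in SHR and -4.35, -4.27 and -4.47 in SHRSP at 3 weeks, and -4.35, -4.73 and -4.34 in SHR and -3.73, -3.44 and -4.12 in SHRSP at 6 weeks. It fell by 1.03 in SHR (SE 0.26, adjusted p = 0.00969), or by 0.64 without that array (adjusted p = 0.0272), and with the slide as a block the call was not made (-0.78, adjusted p = 0.071). It was lower in SHRSP than in SHR at 3 weeks (-0.92 ± 0.26, adjusted p = 0.046), a call lost with 14 of the 18 arrays left out in turn (-0.97 to -0.53, adjusted p from 0.0508 to 0.139). The second Cacnb1 probe gave 0.06 for that comparison and -0.03 for age in SHR, neither called. Cacnb4 was above background on 8 arrays and on 0 in SHR at 6 weeks, where it was at least 1.27-fold lower than in SHR at 3 weeks (adjusted p = 0.0332). That call was lost without SHR replicate 3 at 3 weeks (adjusted p = 0.133) and without SHR replicate 1 at 6 weeks (adjusted p = 0.118). It was not made with normexp background correction (-0.05, adjusted p = 0.632) or with the mean over all probes (-0.08, adjusted p = 0.827).

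Of the gamma subunits, several of which act on glutamate receptors rather than on calcium channels, 6 of 7 were tested. Cacng2 had levels of -5.39, -5.20 and -5.13 in SHR at 3 weeks and -4.92, -4.94 and -4.72 at 6 weeks, a rise of 0.38 ± 0.13 (adjusted p = 0.0442). Cacng7 had levels of -5.98, -6.33 and -6.08 and then -5.86, -5.59 and -5.23, a rise of 0.57 ± 0.18 (adjusted p = 0.0294). Neither was called with the slide as a block (adjusted p of 0.345 and 0.119), and the calls were lost with 10 and 4 of the 18 arrays left out in turn (0.30 to 0.44 and 0.40 to 0.59, adjusted p up to 0.154 and 0.135). Cacng1, Cacng3, Cacng5 and Cacng8 were not called. Cacng3 read -7.47 to -6.14 on 17 arrays and -4.22 on WKY replicate 3 at 3 weeks.

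**Figure D3:**
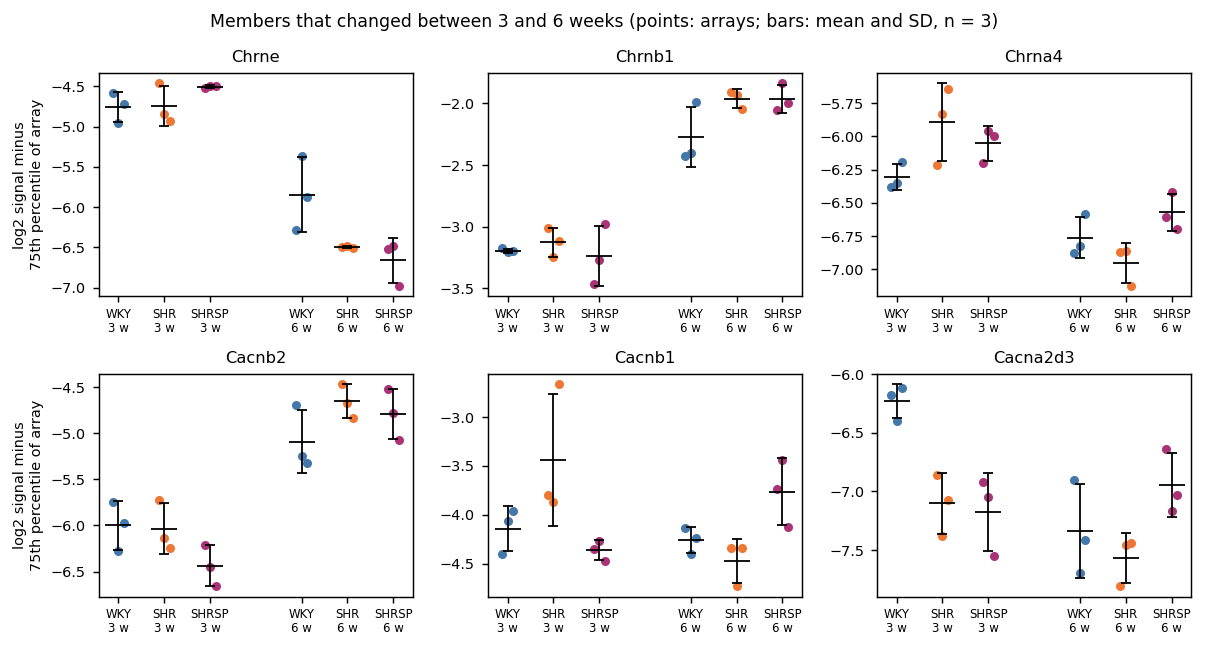
Levels on each array (points; y axis, log2 signal minus the 75th percentile of the array) for members that changed with age, with the mean and SD of 3 arrays (bars), by strain at 3 and 6 weeks (x axis). Chrne and Chrna4 are lower and Chrnb1 and Cacnb2 higher at 6 weeks in all 3 strains, and the third SHR array at 3 weeks is the highest point of Cacnb1, at -2.66.

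Nicotinic receptors are rings of subunits, and the receptor of chromaffin cells and autonomic neurons is built mainly from the products of Chrna3 and Chrnb4, with Chrna5 as an accessory subunit. None of these 3 neighbouring genes was called in any comparison of the fit over all 18 arrays. Without SHR replicate 3 at 3 weeks, Chrna3 was called for the age change of SHRSP against WKY. Chrna5 was called in some comparisons with any 1 of the SHR arrays at 6 weeks left out. Chrna3 had levels of -4.42, -3.94 and -3.72 in WKY, -4.01, -4.08 and -2.13 in SHR and -4.51, -4.41 and -4.37 in SHRSP at 3 weeks, and -4.71 to -3.92 at 6 weeks. Chrnb4 lay between -3.13 and -2.31 on all 18 arrays, and its pairwise differences ran from -0.23 to 0.37. Chrna5 ran from -7.25 to -4.99 on 17 arrays and read -4.04 on SHR replicate 3 at 6 weeks, where the other 2 arrays of the group read -6.25 and -6.58.

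Chrna7, whose product forms a fast, calcium-permeable receptor of a single kind of subunit, was higher in SHRSP at both ages and in SHR at 6 weeks. Its levels at 3 weeks were -6.25, -6.32 and -6.23 in WKY, -6.26, -5.66 and -5.61 in SHR and -5.46, -5.55 and -5.60 in SHRSP. By 6 weeks the levels were -6.39, -5.75 and -5.86 in WKY, -5.34, -5.14 and -5.75 in SHR and -5.21, -5.42 and -5.52 in SHRSP. The gap between the groups at 6 weeks was narrow, since SHR replicate 3 and WKY replicate 2 both rounded to -5.75. The differences from WKY were 0.73 ± 0.20 in SHRSP at 3 weeks (adjusted p = 0.0124), and 0.59 ± 0.20 in SHR (adjusted p = 0.0351) and 0.62 ± 0.20 in SHRSP (adjusted p = 0.0316) at 6 weeks. With quantile normalization the calls in SHRSP at 3 weeks and SHR at 6 weeks were not made (0.58 and 0.57, adjusted p of 0.0647 and 0.0688). Neither 6-week call was made with normexp background correction (0.18 in SHR and 0.11 in SHRSP, adjusted p of 0.17 and 0.441). Nor was either made with the slide as a block (adjusted p of 0.115 and 0.093). Without WKY replicate 1 at 6 weeks the differences were 0.39 (adjusted p = 0.163) and 0.42 (adjusted p = 0.142), and each call was also lost without replicate 1 or 2 of its own hypertensive group (adjusted p from 0.0625 to 0.135).

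Chrna4, which forms the main high-affinity nicotinic receptor of brain together with Chrnb2, fell with age in all 3 strains. Its levels at 3 weeks were -6.38, -6.35 and -6.19 in WKY, -6.22, -5.83 and -5.64 in SHR and -6.20, -5.96 and -6.0 in SHRSP. At 6 weeks they were -6.87, -6.83 and -6.59 in WKY, -6.87, -6.86 and -7.13 in SHR and -6.60, -6.42 and -6.69 in SHRSP. Every 6-week array lay below every 3-week array. It fell by 1.06 in SHR (SE 0.14, adjusted p = 9.3e-05), by 0.52 in SHRSP (adjusted p = 0.0121) and by 0.46 in WKY (adjusted p = 0.0467). The call in WKY was lost with 13 of the 18 arrays left out in turn (-0.49 to -0.40, adjusted p from 0.0502 to 0.158). It was not made with normexp background correction (-0.06, adjusted p = 0.652). Nor was it made with quantile normalization, median scaling, no filter on dim signals or the 6 arrays alone (adjusted p from 0.0697 to 0.0871). In SHRSP the call was not made with quantile normalization (-0.32, adjusted p = 0.217) or normexp (-0.21, adjusted p = 0.0503). Chrnb2, between -7.42 and -6.40, was not called.

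Subunits of the muscle type of receptor, known from the neuromuscular junction, moved in opposite directions with age. Chrne encodes the epsilon subunit of adult muscle. Its levels at 3 weeks were -4.59, -4.95 and -4.72 in WKY, -4.46, -4.85 and -4.93 in SHR and -4.52, -4.50 and -4.49 in SHRSP. The 6-week levels were -6.29, -5.36 and -5.88 in WKY, -6.49, -6.48 and -6.50 in SHR and -6.53, -6.48 and -6.98 in SHRSP. Every 6-week array lay below every 3-week array, and at 6 weeks WKY was highest. It fell by 1.09 in WKY (SE 0.20, adjusted p = 0.00265), by 1.75 in SHR (adjusted p = 2.83e-05) and by 2.16 in SHRSP (adjusted p = 3.03e-06), which is 2.13-fold, 3.36-fold and 4.47-fold. At 6 weeks it was lower than in WKY in SHR (-0.65 ± 0.20, adjusted p = 0.024) and SHRSP (-0.82 ± 0.20, adjusted p = 0.00732). The difference in SHR was not called with the slide as a block (adjusted p = 0.0606) and was lost without WKY replicate 2 (-0.41, adjusted p = 0.0982) or any of the 3 SHR arrays at 6 weeks (-0.65 to -0.64, adjusted p from 0.0517 to 0.061).

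Chrnb1, the beta subunit of the muscle receptor, rose. Its levels at 3 weeks were -3.18, -3.21 and -3.20 in WKY, -3.01, -3.24 and -3.12 in SHR and -3.46, -3.27 and -2.98 in SHRSP. By 6 weeks the levels were -2.42, -2.40 and -1.99 in WKY, -1.91, -1.93 and -2.04 in SHR and -2.05, -1.84 and -2.0 in SHRSP, all above the 3-week arrays. The rise was 0.92 ± 0.13 in WKY (adjusted p = 0.000414), 1.16 ± 0.13 in SHR (adjusted p = 2.38e-05) and 1.27 ± 0.13 in SHRSP (adjusted p = 7.68e-06). Chrna1, the alpha subunit, lay between -1.94 and -0.25 and was not called. Of 9 tested markers of skeletal and smooth muscle, 2 rose in WKY with age, 1 rose and 3 fell in SHR, and 0 were called in SHRSP. The summed signal of all 11 such markers on the array, tested or not, ran from 0.979 to 1.21 over the 3-week groups. Over the 6-week groups it ran from 0.705 to 1.08. Of the 11, Myh2 was above background on 0 arrays. The part of muscle transcripts in the changes of Chrne and Chrnb1 was not tested.

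Promoters of Chrne and Chrnb1 are printed from RefSeq (GRCr8), since both genes changed with age in all 3 strains, in opposite directions. In muscle, E-boxes bind factors of the MyoD family, and the N-box of the epsilon subunit gene binds ETS factors. Capitals mark CAGCTG, a form of the E-box, and CCGGAA, an N-box core. Both were found by a search of both strands in the 250 bases before to the 50 bases after each gene start. Other forms of the E-box were not searched for and are not marked.
Chrne: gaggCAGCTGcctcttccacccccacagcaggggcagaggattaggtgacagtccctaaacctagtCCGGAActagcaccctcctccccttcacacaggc
Chrnb1: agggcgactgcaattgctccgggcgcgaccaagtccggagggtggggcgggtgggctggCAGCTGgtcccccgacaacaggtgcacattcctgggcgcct

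The Chrne stretch lies at chr10:55834175-55834274 on the minus strand, from 120 to 21 bases before the start, with CAGCTG at 116 and the N-box at 54 bases before it. The Chrnb1 stretch lies at chr10:55015108-55015207 on the minus strand, from 100 bases to 1 base before the start, with CAGCTG at 41. CAGCTG was found in 12 of the 40 member names that have a promoter in the table, among them Cacna1s, Chrna1, Scn4a and Scn4b, and in 15.1% of all 33469 promoters. The N-box core was found in 3 of the 40, Chrne, Chrnd and Scn4b, and in 15% of all promoters. A GC box, GGGCGG, was found in 22 of the 40 and in 33.1% of all. A member was counted where any of its promoters held the letters, while the shares of all are over single promoters. The counts of members and these shares are therefore not like for like, and no enrichment was tested. These are matches of letters only.

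The change between 3 and 6 weeks was compared between strains by the interaction term of the fit. SHR differed from WKY in 1 of 42 members, where 5.81% of all genes were called, SHRSP from WKY in 4, where 10.1% were, and SHRSP from SHR in 4, where 11.9% were. For Scn4b, the change in SHR exceeded that in WKY by 0.91 ± 0.16 (adjusted p = 0.00564), and that in SHRSP lay below that in SHR (-0.68 ± 0.16, adjusted p = 0.0128). These were the only interactions of members called with every left-out array and under every alternative that gives them. For Cacna2d3, the change in SHRSP exceeded that in WKY by 1.34 ± 0.31 (adjusted p = 0.0147), with 1 of the 3 WKY arrays at 6 weeks above background, and the call was not made with normexp background correction (0.21, adjusted p = 0.169). Cacnb1 differed between SHRSP and SHR by 1.63 ± 0.37 (adjusted p = 0.0115), and by 1.24 without SHR replicate 3 at 3 weeks (adjusted p = 0.00715). With the mean over its probes, Cacnb1 was not called (0.70, adjusted p = 0.117).

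Against WKY, the changes in SHRSP were lower for Cacna1d (-0.56 ± 0.14, adjusted p = 0.0242), Cacna1s (-1.13 ± 0.28, adjusted p = 0.0224) and Chrne (-1.07 ± 0.28, adjusted p = 0.027). All 3 calls were lost without SHRSP replicate 2 at 3 weeks (-0.51, -1.05 and -1.06, adjusted p of 0.0631, 0.0581 and 0.0559) and without WKY replicate 2 at 3 weeks (-0.51, -1.03 and -0.97, adjusted p of 0.0688, 0.0636 and 0.0737), and each with 2 to 4 other arrays. Cacna1s was called under every alternative other than left-out arrays that gives this comparison. Chrne was not called with the slide as a block (adjusted p = 0.0666) or with quantile normalization (-0.91, adjusted p = 0.0714), and Cacna1d was not called with quantile normalization (-0.37, adjusted p = 0.119), median scaling (-0.49, adjusted p = 0.0578) or normexp (-0.28, adjusted p = 0.0613). Against SHR, Cacna1d (-0.48 ± 0.14, adjusted p = 0.0436) lost its call with 14 of the 18 arrays left out in turn and was not called with the slide as a block (-0.44, adjusted p = 0.0528), with quantile normalization (-0.36, adjusted p = 0.134) or with no filter on dim signals (adjusted p = 0.0664). Cacnb4 passed the test between SHRSP and SHR (adjusted p = 0.0297), but was above background on 0 arrays of SHR at 6 weeks and of SHRSP at 3 weeks, so that its change has no measured size. Its call was lost with 5 arrays left out in turn, among them SHR replicate 3 at 3 weeks (adjusted p = 0.0635). It was not made with normexp (adjusted p = 0.639) or with the mean over all probes (adjusted p = 0.494).

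On the array of SHR replicate 3 at 3 weeks, 12 of the 42 members had their highest level of the 18 arrays, and 9 read at least 1 log2 unit above the mean of the other 2 arrays of the group. These were Scn3b (2.71 above), Cacna1b (2.0), Chrna3 (1.91), Scn2a1 (1.70), Scn9a (1.59), Cacna1e (1.47), Scn7a (1.30), Cacnb3 (1.21) and Cacnb1 (1.17). SHR replicate 3 at 6 weeks held the highest level of 10 members, 2 of them at least 1 log2 unit above the rest of its group, and no other array had more than 2 so far above. Of the 12 markers of nerve fibres and Schwann cells, 8 read so far above on SHR replicate 3 at 3 weeks. Among these were Nefl (3.86), Nefm (3.20) and Prph (3.03). On WKY replicate 3 at 3 weeks, 4 of the 12 did. All 5 members called between SHR and WKY at 3 weeks were called without SHR replicate 3 at 3 weeks, and of the 18 called with age in SHR, 11 were. The 7 lost were Cacna1s, Cacnb4, Cacng2, Cacng7, Scn2a1, Scn3a and Scn3b. Without SHR replicate 2 at 3 weeks, the array with liver transcripts, 15 of the 18 were called. Leaving out SHR replicate 3 at 3 weeks also added calls. Against WKY at 6 weeks these were Cacna1b and Scn9a in both strains, and Cacnb1 and Cacnb3 in SHRSP. Between SHRSP and SHR at 6 weeks they were Cacnb1 and Scn2a1. With age they were Cacna1b, Cacnb3 and Scn7a in WKY and Cacnb1 in SHRSP. For the age change, Cacnb3 was added for SHRSP against WKY and against SHR, and Chrna3 for SHRSP against WKY. Of 10 tested nerve fibre and Schwann cell markers, 4 fell and 2 rose with age in SHR. Their part in the falls of the channel genes there was not tested.

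**Figure D4:**
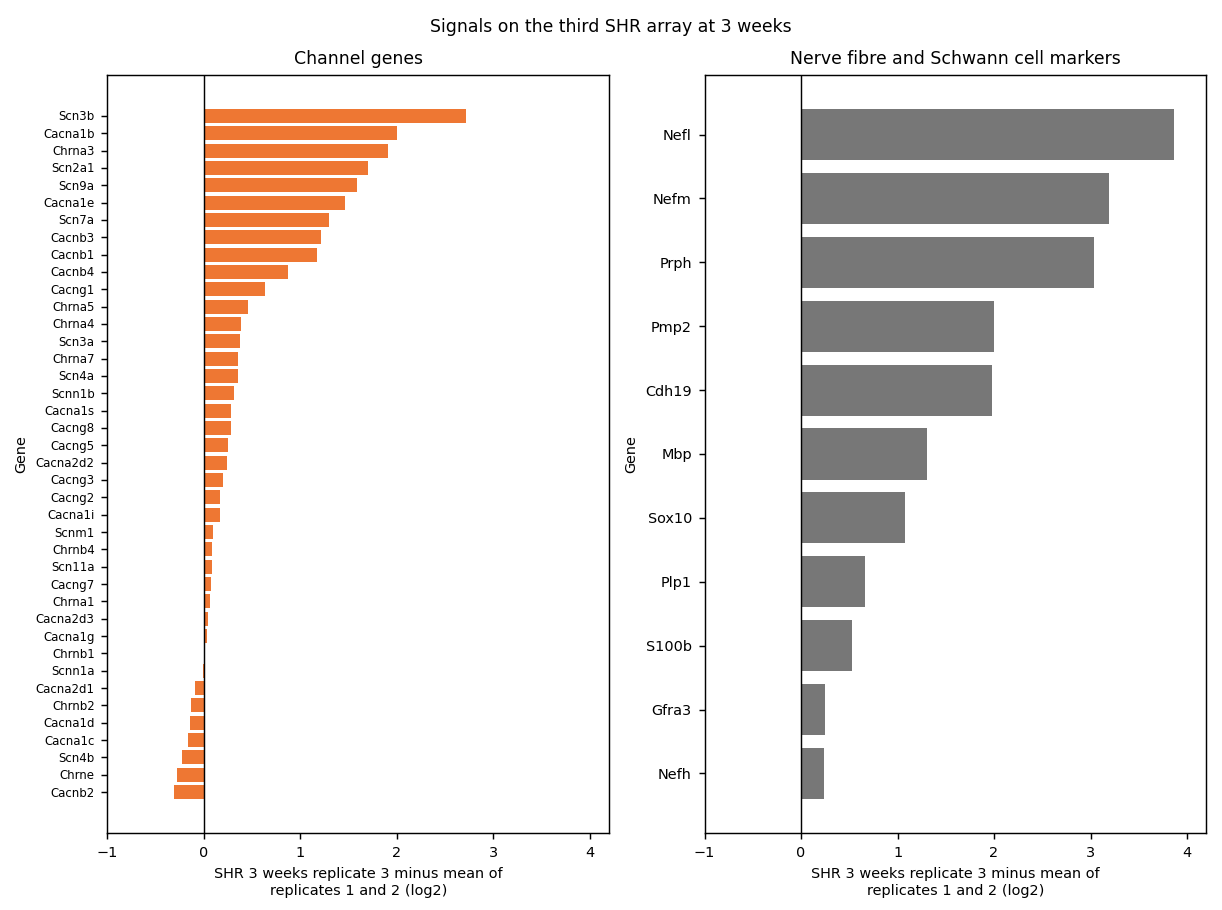
Level on the third SHR array at 3 weeks minus the mean of the other 2 arrays of the group (x axis, log2 units), for channel genes on the left and nerve fibre and Schwann cell markers on the right (rows). Scn3b leads the channel genes at 2.71 and Nefl the markers at 3.86, while many channel genes lie near 0.

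Slide 5 held arrays of all 3 strains at 6 weeks, and 19 of the 42 members read higher there than on the other arrays of their group in all 3 strains. In 5 of them the gap was over 0.5 in each strain: Cacng5 (0.88 in WKY, 1.26 in SHR and 1.02 in SHRSP), Chrna1 (1.05, 0.96 and 0.84), Cacna1i (0.89, 0.79 and 0.99), Scn11a (1.01, 1.02 and 0.61) and Scnn1a (0.67, 0.57 and 0.52). None of these 5 was called in any pairwise comparison of the fit over all 18 arrays. Without SHR replicate 1 at 6 weeks, the only array of that group off slide 5, Chrna1 and Scn11a were called with age in SHR. The fall of Chrne and the rise of Chrnb1 were called with the slide as a block in all 3 strains.

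**Figure D5:**
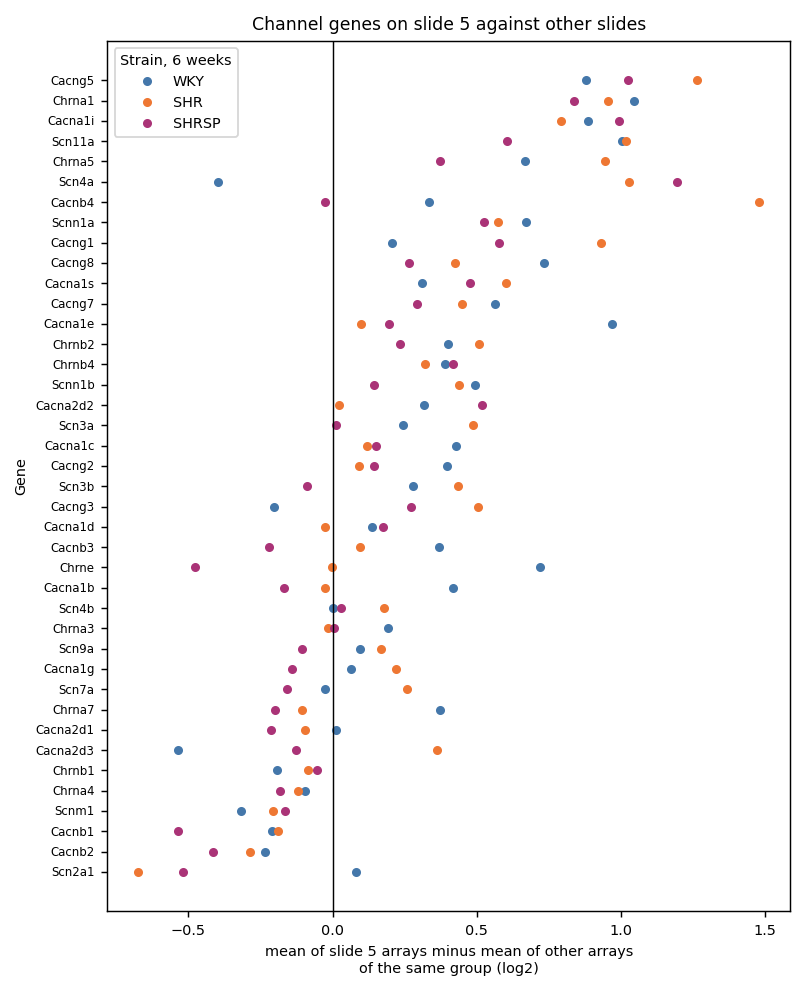
Mean of the slide 5 arrays minus the mean of the other arrays of the same group at 6 weeks (x axis, log2 units) for the members reported here (rows), with a point for each strain. Chrna1 and Cacna1i lie between 0.79 and 1.05 in all 3 strains.

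Genes that work with these channels were read from lists. Of 20 tested partner proteins, such as calmodulins, G proteins that restrain calcium channels and nicotinic modulators, 2 were higher and 1 lower in SHR and 3 and 2 in SHRSP at 3 weeks, and 3 and 1 in SHR and 4 and 4 in SHRSP at 6 weeks. These are 15% and 25%, then 20% and 40% of the list, beside 18.2%, 26.2%, 29.2% and 23.9% of all genes. Lynx1, which binds and restrains nicotinic receptors, was higher at 3 weeks in SHR (0.44 ± 0.10, adjusted p = 0.00759) and SHRSP (0.81 ± 0.10, adjusted p = 6.29e-05). Gem, a small G protein that inhibits calcium channels, was lower in SHRSP at 6 weeks (-2.02 ± 0.37). Calm3, which encodes the calcium sensor calmodulin, was lower at 3 weeks in SHR (-0.34 ± 0.06) and SHRSP (-0.29 ± 0.06), and at 6 weeks in SHRSP (-0.21 ± 0.06). Of 10 regulators of the epithelial sodium channel, 0 were called in SHR and 2 were lower in SHRSP at 3 weeks. At 6 weeks 1 was higher and 1 lower in SHR, and 2 were lower in SHRSP. Each of these shares, 0% or 20%, was below that of all genes. The channel-activating protease gene Prss8 was lower at 6 weeks in SHR (-0.50 ± 0.17) and SHRSP (-1.55 ± 0.17). In SHRSP, the ubiquitin ligase gene Nedd4l differed by -0.76 ± 0.10 at 3 weeks, and the mineralocorticoid receptor gene Nr3c2 by -0.50 and -0.69 (SE 0.13) at 3 and 6 weeks.

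Downstream of calcium entry, 15 genes of catecholamine synthesis and storage were tested. In SHR 6 were higher and 1 lower at 3 weeks and 12 and 1 at 6 weeks, and in SHRSP 10 and 1 and then 10 and 0. These are 46.7% and 86.7% of the list in SHR, beside 18.2% and 29.2% of all genes, and 73.3% and 66.7% in SHRSP, beside 26.2% and 23.9%. The median differences were 0.42, 0.66, 0.61 and 0.67 in that order, beside -0.01, 0.09, 0.09 and -0.01 over all genes. Scg2 and Chgb, which encode granins of the secretory granule, were higher in all 4 comparisons, by 0.56 to 0.84 (SE 0.09) and by 0.41 to 0.87 (SE 0.10). Pnmt, the enzyme that turns noradrenaline into adrenaline, was higher in SHRSP at 3 weeks (0.73 ± 0.12) and in SHR (0.96 ± 0.12) and SHRSP (1.02 ± 0.12) at 6 weeks. Of 19 exocytosis genes, 2 were higher and 3 lower in SHR and 3 and 4 in SHRSP at 3 weeks, and 2 and 2 and then 3 and 1 at 6 weeks. These are 26.3% and 36.8% of the list at 3 weeks, above the shares of all genes, and 21.1% in each strain at 6 weeks, below them. Rab3c was higher in all 4 comparisons (0.41 to 0.77, SE 0.11), and Rab3a was lower in SHR at 3 weeks (-1.26 ± 0.20) and 6 weeks (-0.62 ± 0.20) and in SHRSP at 3 weeks (-0.69 ± 0.20). Cadps2 differed by -0.53 in SHR and -0.59 in SHRSP at 3 weeks, and by -0.42 in SHRSP at 6 weeks (SE 0.09). Of 20 genes of calcium stores and pumps, 1 was higher and 1 lower in SHR and 2 and 3 in SHRSP at 3 weeks, and 5 and 4 in each at 6 weeks. These are 10% and 25% of the list at 3 weeks, below the shares of all genes, and 45% in each strain at 6 weeks, above them. Atp2a1, a calcium pump best known from fast skeletal muscle, was lower in all 4, from -0.82 to -1.89 (SE 0.21). The ryanodine receptor gene Ryr3 was higher at 6 weeks in SHR (1.57 ± 0.23) and SHRSP (1.18 ± 0.23), and the inositol trisphosphate receptor gene Itpr1 was lower at that age in SHR (-0.32 ± 0.09) and SHRSP (-0.89 ± 0.09).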

How the data were processed

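Total RNA of the glands was purified on columns, and 200 ng was labelled with Cy3 from an oligo-dT primer, per the labels' protocols. The scanner software was Agilent Feature Extraction 10.5.1.1, per the file headers and the submitters' processing notes. The deposited values are processed signal intensities, corrected for spatial trends, without subtraction of a local background and without normalization between arrays, per the file headers. The deposited values of the whole series were the same intensities, with a largest difference of 0.

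Intensities were taken as log2 minus each array's 75th percentile (2092 to 2602), without control spots (44254 spots, 42877 not controls) and outlier spots, with repeated spots averaged. Each of 26583 gene names was represented by its brightest of 30367 probes. A linear model with a mean for each of the 6 groups was run over the 18 arrays in limma 3.58.1 and R 4.3.3 (12 residual and 2.12 prior degrees of freedom), tested on simulated data first. Of the genes tested, 180 lacked a value on an array, none of them a member. A member is named with its values where it was called without overlap between the arrays, or as the brightest of its role; from a partner list, the genes with the 3 smallest adjusted p against WKY are named. Some members and markers enter the counts and are not reported here by name. The members and the lists were chosen with earlier results of these data known. Arrays of a group correlated at 0.987 or more, and no 2 arrays were identical (highest r 0.996). Alternatives were other scalings, background, filter, probe rule, blocks, the groups alone and each array left out. Tables were handled with Python 3.11.15, pandas 2.3.3 and the R package data.table (version 1.17.8), and figures with matplotlib 3.10.9.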

Additional observations from a re-analysis of the deposited data

Results flagged for a closer look

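For 7 members, the change between 3 and 6 weeks differed between strains by the interaction term of the limma fit, in 9 comparisons. For Scn4b the change was 0.91 higher in SHR than in WKY (adjusted p = 0.00564) and, in SHRSP set against SHR, differed by -0.68 (adjusted p = 0.0128). For Cacna1d the change in SHRSP differed from that in WKY by -0.56 (adjusted p = 0.0242) and from that in SHR by -0.48 (adjusted p = 0.0436). For Cacna1s it differed by -1.13 (adjusted p = 0.0224), for Chrne by -1.07 (adjusted p = 0.027) and for Cacna2d3 by 1.34 (adjusted p = 0.0147), each between SHRSP and WKY. Between SHRSP and SHR it differed by 1.63 for Cacnb1 (adjusted p = 0.0115) and by 1.96 for Cacnb4 (adjusted p = 0.0297). The Cacnb4 value is the fitted one and no measured size, since SHR at 6 weeks and SHRSP at 3 weeks had 0 arrays above background, and the Cacna2d3 value rests on WKY at 6 weeks with 1 of 3 arrays above background. The second Cacnb1 probe gave -0.22 for the same comparison, which was not called (adjusted p = 0.53).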

How the results depend on the processing

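Besides left-out arrays there were 12 alternatives. Of 75 called results of members, 32 were called under every one of these that gives the result, and 27 also with each array left out. The 6 arrays alone give no age change between strains, and the filter on all 18 arrays leaves out dimmer members. Over all alternatives 0 changed direction. Calls were lost most with the 6 arrays of the 2 groups fitted alone (21), normexp background correction (19), the mean over all probes (13) and the slide as a block (11). In SHR at 3 weeks, 5 members called against WKY became 3 with the mean over probes and 9 with the scan day as a block. For SHRSP they went from 7 to 12 with the 6 arrays alone. Between SHRSP and SHR at 3 weeks 1 became 0 with no filter and with the mean over probes, and 2 with the scan day; at 6 weeks 1 became 2 with quantile normalization, with the filter on all 18 arrays and with the scan day, and 3 with normexp. In SHR at 6 weeks 8 became 5 with normexp, and for age in SHR 18 became 8 with the 6 arrays alone. For age changes, SHR against WKY went from 1 to 3 (quantile), 5 (slide) and 4 (scan day), SHRSP against WKY from 4 to 2 (quantile and normexp), and SHRSP against SHR from 4 to 7 (median scaling), 2 (mean over probes) and 10 (scan day); the cause was not tested. Median scaling moved the median of all genes by 0.13 for age in SHR, where 9 members were then higher and 13 lower, and by 0.10 for the age change of SHR against WKY, and quantile normalization by 0.11 for the age change of SHRSP against SHR. The split was 3 higher and 4 lower for SHRSP at 3 weeks and 4 and 7 for age in SHRSP with quantile normalization, and 5 and 5 for SHR at 6 weeks with median scaling.

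With each array left out, the counts ran from 4 to 9 and 5 to 7 for SHR and SHRSP against WKY at 3 weeks, 5 to 10 and 5 to 11 at 6 weeks, 0 to 4 and 1 to 3 for SHRSP against SHR at the 2 ages, 6 to 11, 11 to 21 and 9 to 12 for age in WKY, SHR and SHRSP, and 1 to 2, 1 to 6 and 2 to 8 for the age changes. Same-numbered arrays on different slides had residuals that correlated at -0.08 on average, from -0.53 to 0.58, so the numbers were not taken as a pairing, while arrays on the same slide correlated at 0.23. With the replicate block, 17 members were called for age in SHR, 7 and 8 for SHR and SHRSP against WKY at 3 weeks and 9 and 7 at 6 weeks, and the lost calls were Cacnb1 between SHRSP and SHR at 3 weeks and Cacng2 with age in SHR. Dim probes limit what can be said of Cacnb4, Scn2a1 and Cacna2d3, above background on 8, 9 and 12 arrays.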
